A study of Mus musculus with 8 samples.

Results

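The Fc gamma receptor genes Fcgr1, Fcgr2b, Fcgr3 and Fcgr4 were followed with 2 partner genes, Fcer1g and Fcgrt, in single liver cells of 8 mice. The members were the 6 rows with these symbols among the 34289 genes with at least 1 count in the kept cells. All mice were wild-type C57BL/6. The 2 control mice had a normal diet and drinking water, the 3 HFD+F+CCl4 mice had a high-fat diet, fructose solution and intraperitoneal CCl4, and the 3 WD+F+CCl4 mice had a western diet with the same fructose and CCl4. The last 2 groups were the nonalcoholic steatohepatitis (NASH) models, both of which combined a diet with a liver toxin, so diet and toxin cannot be told apart, and all mice were taken after the same number of weeks. Whole livers were dissociated with enzymes, red blood cells were lysed and dead cells removed, and no cell type was sorted. RNA was counted from its 3′ end with unique molecular identifiers (UMIs).

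Fc gamma receptors bind the constant part of IgG antibodies and let phagocytes take up coated particles. Fcgr1, the high-affinity receptor, and Fcgr3 and Fcgr4 signal through the Fcer1g chain, whose ITAM motif recruits the kinase Syk. Fcgr2b carries an inhibitory motif that recruits phosphatases, and in the liver it is known for clearing small immune complexes in the sinusoidal endothelium. Fcgrt encodes the neonatal Fc receptor FcRn, which pairs with B2m and returns IgG and albumin from endosomes to the blood.

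Of the members, 4 lie on chromosome 1 (GRCm38). Fcgr2b (chr1:170958617-170976547, minus strand), Fcgr4 (chr1:171018920-171029761, plus strand) and Fcgr3 (chr1:171051174-171064935, minus strand) form a run of 106319 bases with 0 other coding genes between them. Fcer1g (chr1:171229572-171234365, minus strand) starts 164636 bases beyond Fcgr3, with 7 coding genes between. Fcgr1 lies at chr3:96282909-96293969 and Fcgrt at chr7:45092990-45103851, both on the minus strand. Transcripts of Fcgr2b and Fcgr3 share a stretch of 129 bases, and reads that fall wholly inside it cannot be given to either gene. No other pair of members shares more than 14 bases.

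The 250 bases before the start of the 3 activating receptors are shown because Fcgr1 and Fcgr4 rose within the phagocytes described below, while Fcgr3 passed only under another tool or filter. The sequences come from RefSeq on GRCm38.p6, on the strand of the gene. Capitals mark CTTCCTC, which is GAGGAAG on the other strand and the core of sites of the myeloid factor PU.1, and TTCCCAGAA in Fcgr1, an instance of TTCNNNGAA, the core of STAT sites. Both strands were searched, and both motifs were chosen after the sequences had been seen.
Fcgr1, chr3:96293970-96294219, minus strand: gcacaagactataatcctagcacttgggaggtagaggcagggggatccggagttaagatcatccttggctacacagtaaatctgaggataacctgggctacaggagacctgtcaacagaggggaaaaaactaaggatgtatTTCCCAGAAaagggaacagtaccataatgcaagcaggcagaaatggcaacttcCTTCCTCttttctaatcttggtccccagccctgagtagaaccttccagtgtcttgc
Fcgr4, chr1:171018676-171018925, plus strand: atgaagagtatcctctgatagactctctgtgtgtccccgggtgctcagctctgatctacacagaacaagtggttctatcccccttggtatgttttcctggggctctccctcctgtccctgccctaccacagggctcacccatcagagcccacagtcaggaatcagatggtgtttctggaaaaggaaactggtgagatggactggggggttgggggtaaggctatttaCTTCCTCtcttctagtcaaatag
Fcgr3, chr1:171059404-171059653, minus strand: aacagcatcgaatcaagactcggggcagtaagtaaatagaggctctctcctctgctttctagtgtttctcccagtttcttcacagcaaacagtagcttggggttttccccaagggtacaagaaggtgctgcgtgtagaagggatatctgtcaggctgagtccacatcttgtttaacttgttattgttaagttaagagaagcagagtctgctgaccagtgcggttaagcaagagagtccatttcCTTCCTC
GAGGAAG lay 56 to 50 bases before the start in Fcgr1, 23 to 17 in Fcgr4 and 7 to 1 in Fcgr3, and it was not in the same window of Fcgr2b, Fcer1g or Fcgrt. It is in 2807 of 27025 RefSeq promoters of this length (10.4%). TTCNNNGAA was in Fcgr1 alone among the members, 109 to 101 bases before the start, and is in 7.18% of the promoters. In the GENCODE annotation 6 bases of the Fcgr4 window and 27 of the Fcgr3 window lie in an exon of the same gene, and 203 of the 250 bases of the Fcgr2b window lie in exons of Fcgr2b or Gm38204.

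After filtering, 80474 cells were kept, between 4168 and 11999 per mouse. Control replicate 2, which gave the fewest, stood apart in depth, with a median of 992.5 UMIs per cell against 2397 to 4278 in the other mice, and results that rest on it are given without it. Of 79739 distinct barcodes, 732 occurred in more than 1 library. Cells were clustered without the members and named by markers, each name standing for marker-defined, X-like cells. The 66257 named cells fell into 18 types, and each type held its own markers with 0 of them absent. Macrophage-like and Kupffer-like cells both held the macrophage list, at 9529 and 11747 CPM summed. Kupffer-like cells numbered 8 and 0 in the control mice, although Kupffer cells are the resident macrophages of a healthy liver, and macrophage-like cells 13 and 3, so neither type had a control level. Cells that took no name made up 54.7 to 72.4% of the control cells and 3.09 to 14.7% of the NASH cells. The largest such cluster, of 3733 cells and almost all from controls, was led by the lymphoid genes Cxcr6, Il2rb and Art2b.

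Levels are counts per 1000000 (CPM), the UMIs of a gene scaled to 1000000 UMIs of that type in that mouse, given for types with at least 20 cells. Every kind of liver cell held some UMIs of every member, so T cell-like cells, which are not known to make Fcgr1 or Fcgr4, served as the comparison for such UMIs. In T cell-like cells Fcgr4 measured 6.98 and 0 CPM in the control mice, 88.8, 77.3 and 73.2 CPM in the HFD+F+CCl4 mice and 115, 137 and 124 CPM in the WD+F+CCl4 mice. Across the 6 NASH mice this was 30.3 to 43.8% of the Fcgr4 level over all kept cells of the same mouse. B cell-like cells (23.9 to 41.5%) and NK cell-like cells (29.3 to 42.4%) had shares in the same range. The macrophage marker list moved with it, from 34.3 to 68.0 CPM summed in control T cell-like cells to 770.3 to 2303 CPM in those of NASH mice. Whether free RNA set these levels was not tested. Barcodes marked as doublets stayed in these sums. Without them the T cell-like Fcgr1 difference of WD+F+CCl4 mice from control was 3.00 on the log2 scale, against 5.03 with them. That of Fcgr4 in HFD+F+CCl4 mice was 2.71 against 3.68. Neither passed in edgeR without doublets, nor did Fcgr2b, Fcgr3 and Fcer1g in WD+F+CCl4 mice, while the Fcgr4 call in WD+F+CCl4 mice held. A level at or below that of the T cell-like cells of the same mouse is not read here as expression. For the other members this level is only a yardstick, since T cell-like cells of WD+F+CCl4 replicate 3, for example, held more Fcer1g (1161 CPM) than its B cell-like cells (596 CPM).

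**Figure D1:**
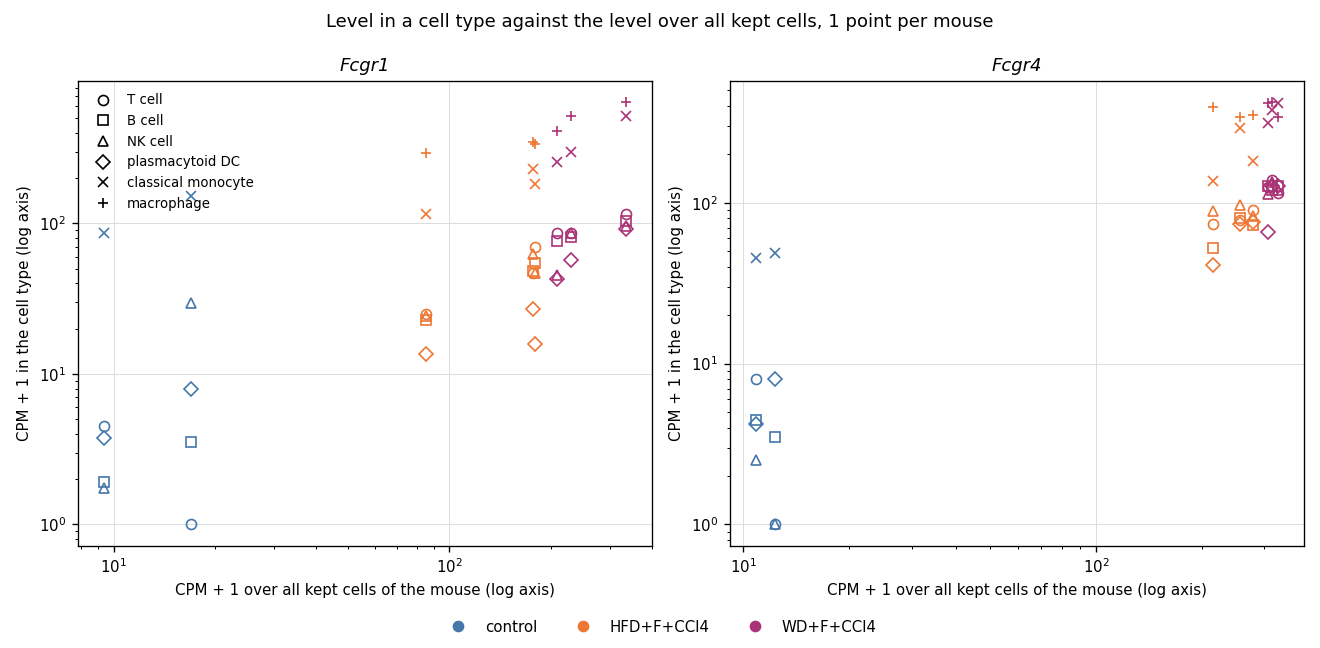
Level of Fcgr1 and Fcgr4 in a cell type (CPM + 1, vertical, log axis) against the level over all kept cells of the same mouse (CPM + 1, horizontal, log axis), with 1 point per mouse and type and colours for the groups. T, B and NK cell-like cells of NASH mice lie together at 21.2 to 43.8% of the level over all kept cells, and macrophage-like cells (+) lie above them in every NASH mouse.

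Of the activating receptors, Fcgr1 was highest in macrophage-like cells, at 334, 346 and 294 CPM in the HFD+F+CCl4 mice and 636, 514 and 411 CPM in the WD+F+CCl4 mice. These levels were 4.83 to 12.2 times those of the T cell-like cells, and no value of one model overlapped the other. The difference of 0.68 on the log2 scale (SE 0.18) between the models did not pass the test for Fcgr1 (edgeR, adjusted p = 0.571). With each macrophage-like cell thinned to 1000 UMIs, 24.1 to 44.6% of cells held an Fcgr1 UMI, against 1.24 to 4.65% of T cell-like cells. Before thinning these shares were 69.0 to 89.0% and 5.27 to 12.9%, at median depths of 5200 to 6779 and 2196 to 2943 UMIs. Thinning left out 336 of 11222 macrophage-like cells and 98 of 4179 T cell-like cells. In patrolling monocyte-like cells Fcgr1 was at 0.509 to 1.18 times the T cell-like level in the NASH mice. Their cluster 11, described next, held more Fcgr1, at 76.2 to 194 CPM, above the T cell-like level in 6 of 6 mice.

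Fcgr4 was highest in patrolling monocyte-like cells, the Ly6c2-low monocytes that crawl along vessel walls. It measured 189.6 CPM in control replicate 1, from 15 UMIs in 33 cells, then 550, 692 and 535 CPM in the HFD+F+CCl4 mice and 867, 774 and 693 CPM in the WD+F+CCl4 mice. Each NASH value was 5.60 to 8.96 times the T cell-like level, and all were above the single control value, which allows no test. Among the 3 patrolling clusters, cluster 11, led by Lilra5, Fcgr4 and Ear2, had 879.8 to 1676 CPM, while cluster 2 had 384 to 684 CPM. Cluster 6, led by the stress genes Hspa1b and Hspa1a, came mostly from HFD+F+CCl4 replicate 1 (2882 of 3803 cells). Macrophage-like cells held Fcgr4 at 341 to 419.8 CPM, Kupffer-like cells at 364, 400.1 and 469 CPM in the 3 mice that had them, and neutrophil-like cells at 209 to 372 CPM in NASH mice.

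Fcgr3, the low-affinity activating receptor, was high in macrophage-like (305 to 554 CPM), Kupffer-like (427 to 566 CPM), neutrophil-like (264 to 480.4 CPM) and classical monocyte-like cells (216 to 352 CPM). In patrolling monocyte-like cells it measured 215 CPM in control replicate 1 and 41.7 to 112 CPM in the 6 NASH mice, which was 0.419 to 1.30 times the T cell-like level. NK cells are known to carry Fcgr3, and NK cell-like cells had 43.5 and 0 CPM in the control mice. These came from 58 UMIs in 481 cells and 0 UMIs in 25 cells, where 3 UMIs would be 85.7 CPM. In the NASH mice they had 60.04 to 160.0 CPM, which was 0.718 to 1.86 times the T cell-like level.

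The inhibitory Fcgr2b had another main site. Sinusoidal endothelial-like cells, which line the liver's capillaries, held 2008 and 1531 CPM in the control mice, 1414 and 1308 CPM in the 2 HFD+F+CCl4 mice with enough cells and 1912 CPM in WD+F+CCl4 replicate 3. Control and NASH values overlapped, and all were at least 15.4 times the T cell-like level. The clusters of this type were not alike, with a mean Fcgr2b of 670 CPM in cluster 7.0. In clusters 7.1, 7.2, 7.3 and 7.5 the means were 1662 to 2288 CPM. Fcgr2b UMIs were in 66.6 to 75.8% of control and 57.2 to 75.4% of NASH sinusoidal cells after thinning to 1000 UMIs (74.0 to 80.8% and 63.0 to 91.5% before). Macrophage-like cells held 223 to 465 CPM, classical monocyte-like cells 251 to 362 CPM and B cell-like cells, in which Fcgr2b is the known Fc gamma receptor, 87.6 to 175 CPM. In Kupffer-like cells Fcgr2b was only 56.8, 19.0 and 28.3 CPM, which was 0.227 to 1.15 times the T cell-like level. Kupffer-like and macrophage-like cells of the same 3 mice were not tested against each other for Fcgr2b.

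Fcer1g, the signalling chain, was the broadest member. It was highest in patrolling monocyte-like cells, at 3021 CPM in control replicate 1, 2742 to 4329 CPM with HFD+F+CCl4 and 3624 to 4125 CPM with WD+F+CCl4. NK cell-like cells had 2057 and 1056 CPM in the control mice and 1641 to 2379 CPM in the NASH mice, at 2.05 to 3.66 times the T cell-like level in the latter, beside the 0.718 to 1.86 times given for their Fcgr3. Type 1 DC-like cells had little, at 593 and 461 CPM in the control mice, 234, 298 and 309 CPM in the HFD+F+CCl4 mice and 581, 435 and 334 CPM in the WD+F+CCl4 mice.

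Fcgrt was highest in sinusoidal endothelial-like cells, at 549 and 686 CPM in the control mice, 531 and 578 CPM in 2 HFD+F+CCl4 mice and 664 CPM in WD+F+CCl4 replicate 3, and these groups overlapped. Kupffer-like cells held 281, 258 and 177 CPM and vascular endothelial-like cells 125 to 384 CPM, overlapping each other. Hepatocyte-like cells, which make albumin, held Fcgrt at 73.8 CPM in control replicate 1, 68.4, 74.4 and 79.1 CPM in the HFD+F+CCl4 mice and 26.04, 31.1 and 36.5 CPM in the WD+F+CCl4 mice. The control value came from 7 UMIs in 38 cells. Hepatocyte-like levels were 1.31 to 3.14 times the T cell-like level in HFD+F+CCl4 mice and 0.935 to 1.30 times in WD+F+CCl4 mice. The 2 models did not overlap there, but the difference in Fcgrt of -1.29 on the log2 scale (SE 0.28) had an edgeR adjusted p of 0.29.

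**Figure D2:**
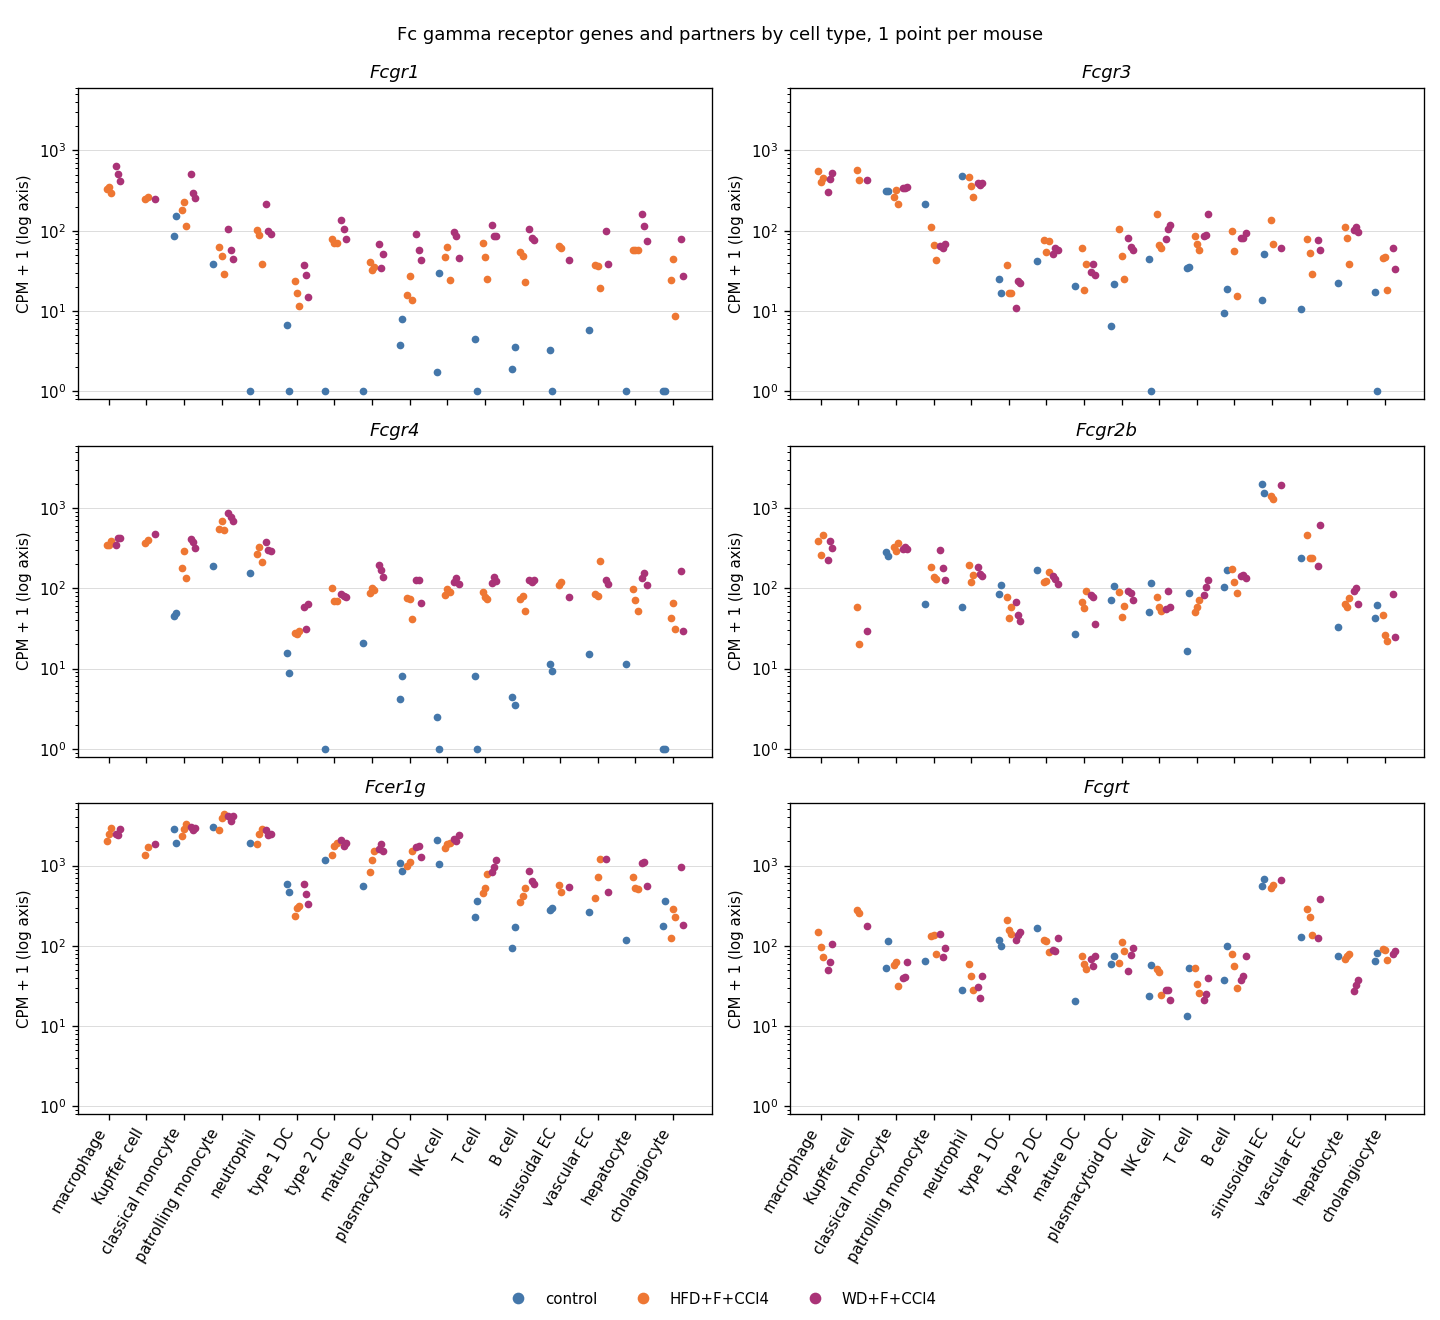
CPM + 1 (vertical, log axis) of each member in 16 cell types (horizontal, the suffix -like left out), with 1 point per mouse with at least 20 cells and colours for the groups. Fcgr2b and Fcgrt peak in sinusoidal endothelial (EC) cells, Fcgr1 in macrophages and Fcgr4 in patrolling monocytes. Control points of Fcgr1 and Fcgr4 lie below the NASH points in T and B cells, as do those of Fcgr4 in NK cells. For Fcgr1 in NK cells, control replicate 2 (28.6 CPM, 1 UMI in 25 cells) lies above HFD+F+CCl4 replicate 3 (23.1 CPM).

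The order of the levels, taken from these same data, was tested between neighbouring types only. Over the 14 types with 20 cells in at least 6 mice, 0 of 78 pairs of neighbours in the order passed the exact two-sided sign-flip permutation test, with 14 at an unadjusted p under 0.05 and a smallest adjusted p of 0.102. The smallest p this test allows is 0.0313 with 6 mice, 0.0156 with 7 and 0.00781 with 8. After adjustment over 78 pairs no pair could pass alone, so 0 of 78 does not show that neighbours were alike. Fcgr4 was higher in patrolling monocyte-like than in macrophage-like cells in 6 of 6 mice (0.85 ± 0.31 on the log2 scale, SD, exact permutation p = 0.0313, adjusted p = 0.203), and 0.0313 is the smallest p that 6 mice allow. Fcgr1 was higher in macrophage-like than in classical monocyte-like cells in 6 of 6 mice by 0.77 ± 0.35 (exact permutation p = 0.0313, adjusted p = 0.203). Fcgr3 was higher in classical than in patrolling monocyte-like cells in 7 of 7 mice by 1.95 ± 0.75 (exact permutation p = 0.0156, adjusted p = 0.102). Sinusoidal and Kupffer-like cells were in too few mice for this test.

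The first comparison asks how the members differ between NASH and control livers, taken over the whole suspension. Over all kept cells, 4 of the 6 members rose in both models and 0 fell, namely the activating receptors Fcgr1, Fcgr3 and Fcgr4 and the chain Fcer1g. The background was 18.9% of genes called in either direction in HFD+F+CCl4 against control and 21.4% in WD+F+CCl4 against control. The median difference of the 6 members was 2.33 and 2.56 on the log2 scale, against -0.01 and -0.06 for all genes tested. Calls are edgeR quasi-likelihood tests with a Benjamini-Hochberg adjusted p under 0.05 over all genes.

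Fcgr4 moved most. It measured 9.85 and 11.3 CPM in the control mice, 278, 255 and 214 CPM in the HFD+F+CCl4 mice and 326, 314 and 306 CPM in the WD+F+CCl4 mice. The groups did not overlap, and Fcgr4 rose by 4.67 (SE 0.17, adjusted p = 0.000121) and 5.09 (SE 0.17, adjusted p = 7.39e-05) on the log2 scale. Fcgr1 measured 8.35 and 16.0 CPM in the control mice, 179, 176 and 84.3 CPM in the HFD+F+CCl4 mice and 334, 229 and 209 CPM in the WD+F+CCl4 mice. Again no groups overlapped, and Fcgr1 rose by 3.75 (SE 0.43) and 4.66 (SE 0.45).

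Fcgr3 measured 38.1 and 43.7 CPM in the control mice, 313, 225 and 153 CPM in the HFD+F+CCl4 mice and 244, 237 and 288 CPM in the WD+F+CCl4 mice, a rise of 2.59 (SE 0.24) and 2.84 (SE 0.25). Fcer1g measured 549 and 506 CPM in the control mice, 1614, 1961 and 2507 CPM in the HFD+F+CCl4 mice and 2424, 2194 and 2115 CPM in the WD+F+CCl4 mice, a rise of 2.07 (SE 0.34) and 2.28 (SE 0.34). The NASH models overlapped for both genes. Without control replicate 2, the Fcer1g difference in HFD+F+CCl4 mice was 1.95 and no longer passed.

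Fcgr2b and Fcgrt did not pass in the main fit. In WD+F+CCl4 mice Fcgr2b passed with DESeq2 (0.90) and with more than 1000 genes per cell (1.22). Fcgr2b measured 135 and 223 CPM in the control mice, 359, 169.6 and 209.5 CPM in the HFD+F+CCl4 mice and 216, 229 and 379 CPM in the WD+F+CCl4 mice, which overlap, with differences of 0.58 (SE 0.33, edgeR adjusted p = 0.257) and 0.83 (SE 0.33, edgeR adjusted p = 0.117). Fcgrt measured 51.9 and 129.7 CPM in the control mice, 177, 97.0 and 55.7 CPM in the HFD+F+CCl4 mice and 45.3, 52.9 and 159 CPM in the WD+F+CCl4 mice. For both genes the highest NASH values were in HFD+F+CCl4 replicate 1 and WD+F+CCl4 replicate 3, the mice in which sinusoidal endothelial-like cells made up 10.5 and 10.8% of the cells, against at most 1.07% in the other NASH mice.

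These sums carry the make-up of the suspension. Mononuclear phagocytes, here the 3 DC types, both monocyte types, macrophage-like and Kupffer-like cells together, were 6.12 and 10.1% of the cells in the control mice and 50.4 to 68.4% in the NASH mice. They held 79.5 to 88.2% of the Fcgr1 UMIs of NASH mice and 43.5 to 63.2% of those of control mice. The control shares are partial, since over 50% of the control cells took no name. For Fcgr4 the shares were 76.0 to 85.2% and 30 to 39.4%. More phagocytes and more RNA per phagocyte cannot be told apart in the whole suspension.

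Within the mononuclear phagocytes, 2 of the 6 members rose in each model, Fcgr4 and Fcgr1, and 0 fell, beside a background of 7.47% of genes in HFD+F+CCl4 and 12.4% in WD+F+CCl4 against control. Fcgr4 measured 41.8 and 32.5 CPM in the control mice, 359.7, 332 and 264 CPM in the HFD+F+CCl4 mice and 412, 388 and 426 CPM in the WD+F+CCl4 mice. The groups were apart, and Fcgr4 rose by 3.05 (SE 0.22, edgeR adjusted p = 0.0009) and 3.47 (SE 0.23, edgeR adjusted p = 0.000584). Fcgr1 measured 56.8 and 66.8 CPM in the control mice, 228, 234 and 108 CPM in the HFD+F+CCl4 mice and 458, 289 and 279 CPM in the WD+F+CCl4 mice.

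Fcgr1 thus rose by 1.65 (SE 0.37, edgeR adjusted p = 0.0323) and 2.58 (SE 0.39, edgeR adjusted p = 0.00531). The Fcgr1 call in HFD+F+CCl4 mice was lost when HFD+F+CCl4 replicate 1 (1.52) or replicate 2 (1.43) or either control mouse (1.65 and 1.66) was left out, and that in WD+F+CCl4 mice did not hold without control replicate 1 (2.58). The Fcgr4 calls held without any 1 mouse.

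The other members differed less in these cells. Fcgr3 measured 200.003 and 139 CPM in the control mice, 382, 284 and 175 CPM in the HFD+F+CCl4 mice and 278, 281 and 379 CPM in the WD+F+CCl4 mice, with Fcgr3 differences of 0.69 (SE 0.32) and 0.93 (SE 0.32) that did not pass, although in WD+F+CCl4 mice Fcgr3 passed with DESeq2 (0.89) and with no filter beyond 1 count (0.98). Fcer1g measured 2013 and 1143 CPM in the control mice, 2062 to 3038 CPM with HFD+F+CCl4 and 2594 to 2927 CPM with WD+F+CCl4, with Fcer1g differences of 0.70 (SE 0.35) and 0.88 (SE 0.35) that did not pass. Fcgr2b lay between 169.7 and 200.003 CPM in the control and between 209.5 and 286 CPM in the NASH mice. These ranges did not overlap, but Fcgr2b passed in neither model. Fcgrt groups overlapped, from 72.5 to 105 CPM and from 54.6 to 143 CPM. In WD+F+CCl4 mice 5 of the 6 members had an unadjusted edgeR p under 0.05, beside 4660 of 16590 genes tested. In HFD+F+CCl4 mice 2 did, beside 4081 of 16590, so this share was near that of all genes. The phagocytes of NASH mice were mostly types that the control mice almost lacked, except in WD+F+CCl4 replicate 1. In that mouse 3394 of 6042 phagocytes were classical monocyte-like cells, a type that the control mice held. The macrophage list rose from 143 to 363 CPM summed in control to 2790 to 7217 CPM in NASH phagocytes. The part of this mix in the Fcgr4 and Fcgr1 rises can be seen only within a type that both groups held. Type 1 DC-like cells were in all 8 mice, with 143 and 171 control cells. Fcgr4 there was 14.5 and 7.81 CPM in the control and 25.8 to 62.8 CPM in the NASH mice. In the NASH mice this was 0.222 to 0.507 times the T cell-like level. Of the 2 genes, Fcgr4 was called there in WD+F+CCl4 mice only and Fcgr1 in neither model.

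Classical monocyte-like cells are the Ly6c2-high monocytes that enter injured tissue. They were another type that both groups held, with 426 and 197 control cells and 335 to 3394 cells per NASH mouse. Here Fcgr4 measured 44.4 and 47.6 CPM in the control mice, 179.8, 291 and 135 CPM in the HFD+F+CCl4 mice and 415, 378 and 313 CPM in the WD+F+CCl4 mice. No control value overlapped a NASH value, and Fcgr4 rose by 2.17 (SE 0.35, edgeR adjusted p = 0.00728) and 3.04 (SE 0.35, edgeR adjusted p = 0.00122), beside backgrounds of 6.83% and 9.9% of genes. Less the T cell-like level of the same mouse, Fcgr4 was 37.5 and 47.6 CPM in the control mice, 90.9, 214 and 61.5 CPM in the HFD+F+CCl4 mice and 299.9, 240.3 and 189.6 CPM in the WD+F+CCl4 mice, still with no overlap. The value of control replicate 2 is uncertain, since it rests on 11 UMIs. Its T cell-like level was 0 UMIs in 53 cells, where 3 UMIs would be 51.4 CPM. Without control replicate 1 the Fcgr4 difference in HFD+F+CCl4 mice was 2.33 and did not pass, and without control replicate 2 both Fcgr4 calls held.

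Fcgr1 in the same cells measured 85.7 and 152 CPM in the control mice, 181, 228 and 114 CPM in the HFD+F+CCl4 mice and 515, 298 and 254 CPM in the WD+F+CCl4 mice. It rose in WD+F+CCl4 mice by 1.79 (SE 0.39, edgeR adjusted p = 0.0183), whereas the HFD+F+CCl4 values overlapped the control values, with a difference of 0.74 (SE 0.38, edgeR adjusted p = 0.256). The Fcgr1 call did not hold without control replicate 1 (1.5) or control replicate 2 (2.01). Fcgr3 stayed between 216 and 352 CPM in all 8 mice, Fcgr2b between 251 and 362 CPM and Fcer1g between 1927 and 3287 CPM, and none of these 3 passed. The control values of Fcgr3 were 314 and 307 CPM, inside the range of the NASH mice. Macrophage markers were 212 to 314 CPM summed in control and 1846 to 2771 CPM in NASH classical monocyte-like cells, and their part in the Fcgr4 and Fcgr1 rises was not tested.

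**Figure D3:**
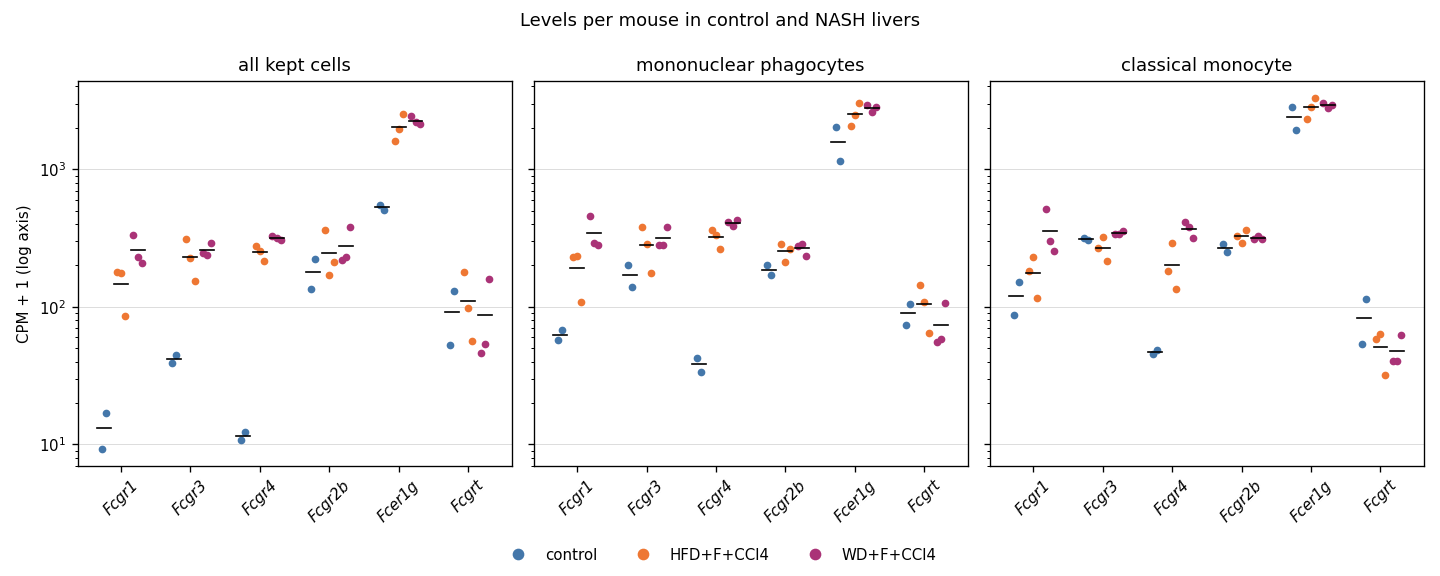
CPM + 1 (vertical, log axis) of each member over all kept cells, in mononuclear phagocytes and in classical monocyte-like cells, with 1 point per mouse, colours for the groups and a black bar at the group mean. Fcgr4 is apart between control and NASH mice in all 3 panels, while Fcgr3, Fcgr2b and Fcer1g overlap or nearly meet in classical monocyte-like cells.

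Different clusters held the classical monocyte-like cells of the groups. Cluster 26 held 348 and 147 of the control cells, while NASH cells were in cluster 3, led by the interferon-response genes Cxcl10 and Ifit3, and in cluster 5, led by Vcan. Cluster 3 also held 65 and 46 control cells, so it could be set side by side, with no test. In cluster 3 Fcgr4 was 134 and 66.2 CPM in the control mice, 251, 359 and 152 CPM in the HFD+F+CCl4 mice and 514, 465 and 513 CPM in the WD+F+CCl4 mice. In cluster 5 it was 148, 163 and 98.2 CPM in the HFD+F+CCl4 mice and 273, 263 and 217 CPM in the WD+F+CCl4 mice, lower than in cluster 3 of the same mouse in 6 of 6 mice. Fcgr1 followed the same split, at 121 to 682 CPM in cluster 3 and 99.3 to 277 CPM in cluster 5 of NASH mice, and at 159 and 232 CPM in the control cells of cluster 3. Fcgr2b was also higher in cluster 3, at 343 to 487 CPM, than in cluster 5, at 193 to 252 CPM. At a Leiden resolution of 0.42, where 1 cluster held 424 and 188 control cells and 334 to 2431 cells of each NASH mouse, Fcgr4 rose by 1.88 and 2.79 in classical monocyte-like cells.

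**Figure D4:**
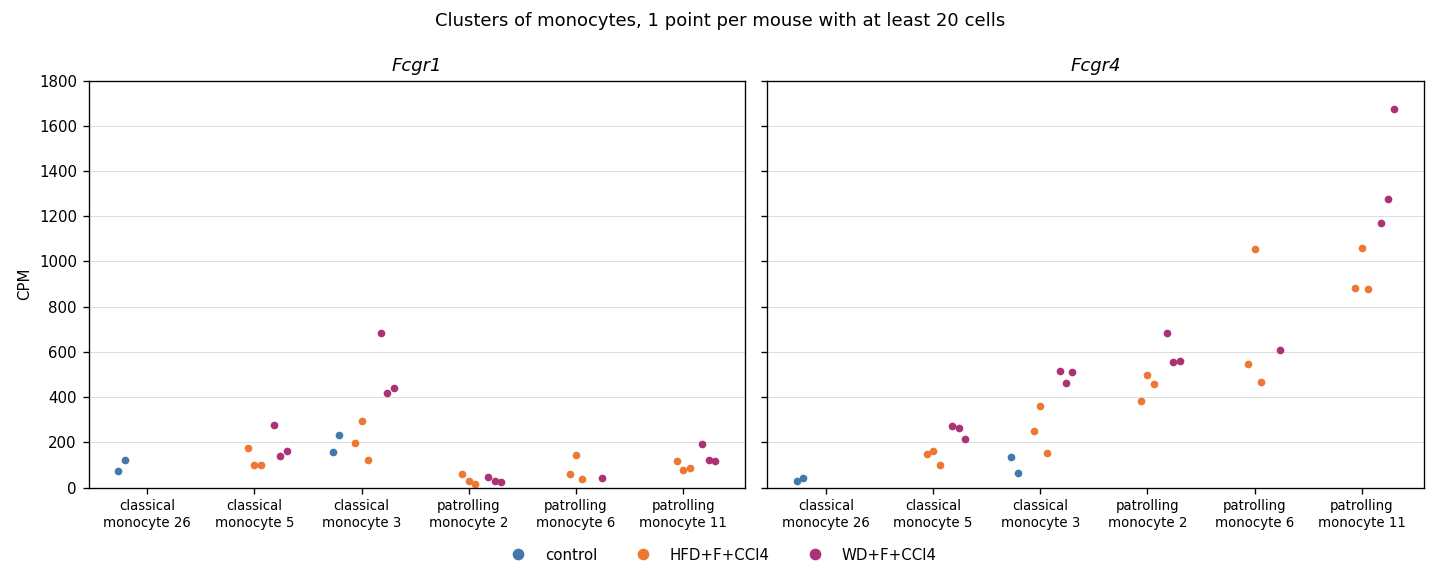
CPM (vertical, linear axis) of Fcgr1 and Fcgr4 in the 3 clusters of classical and the 3 clusters of patrolling monocyte-like cells (horizontal), with 1 point per mouse with at least 20 cells and colours for the groups. Control mice appear in clusters 26 and 3 only, Fcgr4 is highest in cluster 11, at 879.8 to 1676 CPM, and Fcgr1 is highest in cluster 3.

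Across all types that could be compared, 15 of 48 pairs of a member and a type were called in HFD+F+CCl4 against control (14 rose and 1 fell, background 4.09% of gene and type pairs) and 18 of 42 in WD+F+CCl4 against control (18 rose, background 6.57%). Of these, 1 and 5 were in the T cell-like cells themselves. Of the other 14 and 13 pairs, 4 and 6 were at or below the T cell-like level in every mouse of the model. Those over 1.5 times that level in every mouse, a limit set after the data had been seen, were Fcgr4 in classical monocyte-like cells of both models (1.84 to 3.77 and 2.53 to 3.62 times) and Fcgr1 in the same cells of WD+F+CCl4 mice (3.00 to 4.47 times). The remaining pairs were in B and NK cell-like cells, plasmacytoid and type 1 DC-like cells and sinusoidal endothelial-like cells. In B cell-like cells, for example, Fcgr1 was 0.914 and 2.52 CPM in the control mice (5 and 1 UMIs), 54.0, 47.3 and 21.9 CPM in the HFD+F+CCl4 mice and 103, 80.7 and 75.4 CPM in the WD+F+CCl4 mice. The pair that fell was Fcer1g in type 1 DC-like cells of HFD+F+CCl4 mice, by 0.95 on the log2 scale (SE 0.24, edgeR adjusted p = 0.044), and this call did not hold without control replicate 1 (-0.65), WD+F+CCl4 replicate 2 (-0.94) or any 1 of the 3 HFD+F+CCl4 mice (-1.05 to -0.81).

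The balance of activating to inhibitory receptors was taken as the log2 ratio of the summed Fcgr1, Fcgr3 and Fcgr4 level to the Fcgr2b level, each with 1 CPM added. In mononuclear phagocytes it was 0.58 and 0.49 in the control mice, 1.76, 2.02 and 1.05 with HFD+F+CCl4 and 2.05, 1.74 and 2.2 with WD+F+CCl4. All 6 NASH mice (1.80 ± 0.41, SD, n = 6) were above both control mice (0.53 ± 0.06, SD, n = 2). The exact two-sided permutation test gave p = 0.0714 for the difference of 1.27, the smallest p this design allows. In classical monocyte-like cells the ratio overlapped, at 0.65 to 1.01 in the control and 0.36 to 2.02 in the NASH mice. The rise was not particular to the phagocytes. In B cell-like cells the ratio was -2.88 to -2.84 in the control and 0 to 1.14 in the NASH mice, and in NK cell-like cells -1.96 to -0.11 and 1.73 to 2.41. T cell-like cells overlapped, at -1.30 to 1.42 and 1.12 to 2.28. In control replicate 1, patrolling monocyte-like (2.79) and neutrophil-like cells (3.45) were above their NASH ranges, 1.80 to 2.65 and 1.80 to 2.69. Kupffer-like cells had the highest values, 4.35 to 5.77, and sinusoidal endothelial-like cells the lowest, -6.25 to -4.68 in the control and -3.41 to -2.19 in the NASH mice. In the latter the Fcgr2b level overlapped between the groups, and the activating receptors of NASH mice were at 0.373 to 1.59 times the T cell-like level. The sinusoidal type pooled unlike clusters. Cluster 7.0 had means of 670 CPM of Fcgr2b and 1058 CPM of Fcer1g, against 2194 and 203 CPM in cluster 7.2. It held 478 of 1173 sinusoidal cells in HFD+F+CCl4 replicate 1 and 316 of 1260 in WD+F+CCl4 replicate 3. In control replicate 1 it held 21 of 485. The part of this mix in the ratio was not tested.

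**Figure D5:**
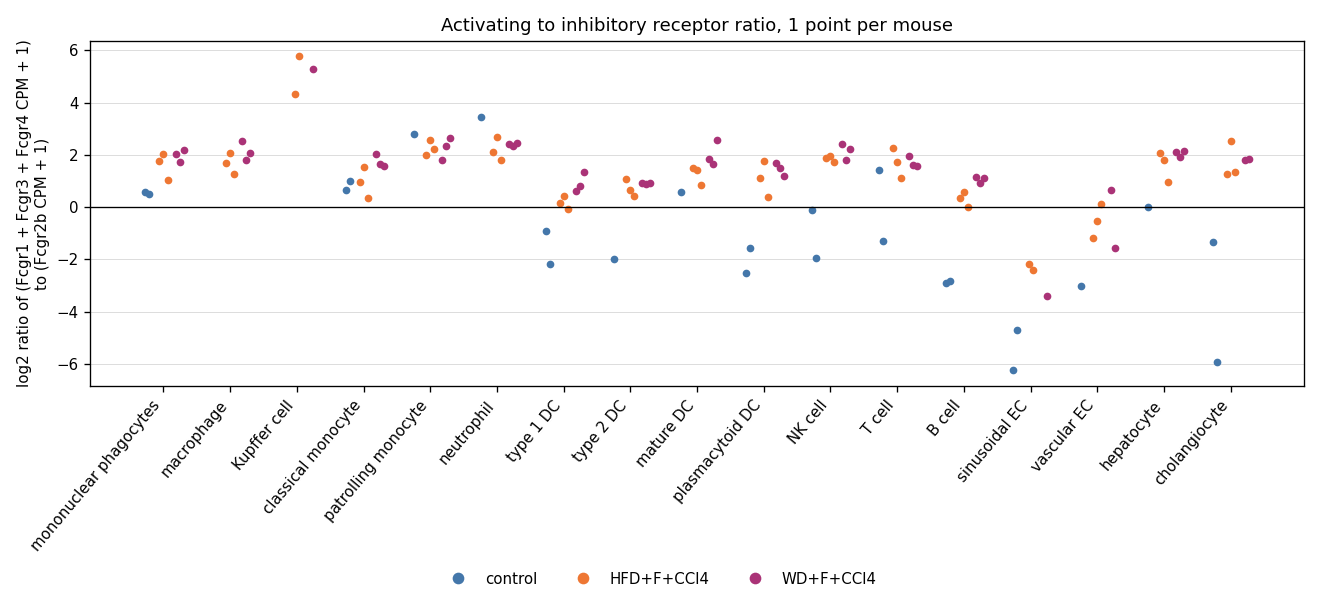
Log2 ratio of activating (Fcgr1, Fcgr3 and Fcgr4) to inhibitory (Fcgr2b) CPM (vertical) in mononuclear phagocytes and 16 cell types (horizontal, the suffix -like left out), with 1 point per mouse, colours for the groups and a line at 0. Kupffer cells are highest, sinusoidal endothelial cells lie below 0 in every mouse, and the NASH points of the mononuclear phagocytes lie above both control points.

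The 2 NASH models were compared directly. Of the 6 members, edgeR called 0 over all kept cells and 0 in the mononuclear phagocytes (background 0% of genes in each), and DESeq2 called 0. In each sum 2 members had an unadjusted edgeR p under 0.05, beside 767 of 19787 genes over all kept cells and 1102 of 16590 in the phagocytes. These 2 members were Fcgr1 and Fcgr4, at 0.92 (SE 0.32) and 0.42 (SE 0.12) over all kept cells and 0.93 (SE 0.30) and 0.42 (SE 0.17) in the phagocytes, higher in WD+F+CCl4 mice. By type 0 of 90 pairs were called (background 0.0173%), with 30 at an unadjusted edgeR p under 0.05 and 1 called by DESeq2. Of all genes, the share under that unadjusted limit was lowest in vascular endothelial-like cells (163 of 8638) and highest in mature DC-like cells (494 of 5521). In classical monocyte-like cells Fcgr4 was higher by 0.87 (SE 0.24, edgeR adjusted p = 0.252) and Fcgr1 by 1.04 (SE 0.29, edgeR adjusted p = 0.261) in WD+F+CCl4 mice, with no overlap of the 3 against 3 values for either gene.

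Whether the NASH effect of a member differed between a type and the mononuclear phagocytes was tested with the mouse as a block, both models together against control. For 7 pairs it did (background 4.37% of gene and type pairs): Fcgr4, Fcgr3, Fcer1g and Fcgr1 in B cell-like cells, Fcgr4 and Fcgr1 in NK cell-like cells and Fcgr3 in plasmacytoid DC-like cells. All were larger on the log2 scale outside the phagocytes. Control cells of these types held few UMIs of Fcgr1 (1 to 5) and Fcgr4 (0 to 19), more of Fcgr3 (7 to 47), and 516 and 67 of Fcer1g in B cell-like cells. Without control replicate 1, 0 of the 7 were called, with control replicate 2 then the only control mouse.

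Other genes of the pathway were counted from lists chosen with earlier results of these data known. Other receptors that pair with the Fcer1g chain moved most. All 5 of the 5 that could be tested (of 6 listed) rose over all kept cells in both models, beside 18.9% and 21.4% of all genes called. Within the mononuclear phagocytes 5 rose in HFD+F+CCl4 and 4 in WD+F+CCl4 mice, beside 7.47% and 12.4% of all genes. In classical monocyte-like cells 5 and 4 rose, beside 6.83% and 9.9% of all genes. In the phagocytes Lilra5, an activating leukocyte receptor, rose by 3.11 (SE 0.41) and 2.49 (SE 0.41), Clec4n (Dectin-2), a fungal sugar receptor, by 3.32 (SE 0.55) and 2.76 (SE 0.55), and Cd300c2 by 1.51 (SE 0.22) and 1.5 (SE 0.22). Clec4e (Mincle), which also senses dead cells, rose by 2.66 (SE 0.65) in HFD+F+CCl4 mice. The list's median was 2.66 and 2.22 in the phagocytes, against 0.10 and 0.11 for all genes tested.

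Of 12 ITAM kinases and adaptors, 7 rose over all kept cells in HFD+F+CCl4 and 9 in WD+F+CCl4 mice (18.9% and 21.4% of all genes were called in either direction), among them the Src-family kinase Lyn (1.52 and 1.79) and the adaptor Tyrobp (1.45 and 1.72), with 0 falls. Within the phagocytes, where 7.47% and 12.4% of all genes were called, 1 and 3 of the 12 rose, the first a share near that of all genes, including Syk in both models and Vav1 (0.79) in WD+F+CCl4 mice, and in classical monocyte-like cells 0 did. Of 8 inhibitory phosphatases and adaptors, 2 and 3 rose in the phagocytes beside the same shares of all genes, including the adaptor Dok1 in both (0.99 and 1.06) and the phosphatase Ptpn6 in WD+F+CCl4 mice (0.98).

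Among other Fc receptors, 8 of 11 could be tested in the phagocytes, where 7.47% and 12.4% of all genes were called. Of these 8 receptors, 0 rose and 4 fell in HFD+F+CCl4 mice and 1 rose and 4 fell in WD+F+CCl4 mice. Those that fell in both included Fcer2a, the low-affinity IgE receptor of B cells (-4.36 and -4.34), and Fcrla, a B cell protein (-2.83 and -4.13). B cell-like cells numbered 2300 and 243 in the control and 32 to 1481 in the NASH mice, and the part of their RNA in these falls was not tested. None of the 4 IgG heavy chain genes passed over all kept cells in either model (edgeR), where 18.9% and 21.4% of all genes were called. Alb, the second ligand of FcRn, fell in WD+F+CCl4 mice by 3.61 (SE 0.84) over all kept cells, and B2m, its light chain, passed in neither model. The Alb sum carries the make-up of the suspension, whose part in the Alb fall was not tested.

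The genes most like each member were found by Pearson's r of log2(CPM + 1) over 99 sums of at least 50 cells of 1 type in 1 mouse (18 types, 7833 genes compared). This is a description, since sums of 1 mouse share a library and sums of 1 type share their cells. Fcgr4 was most like Pla2g7 (0.92), Clec4a3 (0.92), Csf1r (0.91), Cd300ld (0.89) and Adgre1 (0.89). The genes most like Fcgr1 included Trem2 (0.88), Itgb5 (0.86), C3ar1 (0.85) and Ms4a7 (0.85). Trem2 and Adgre1 are among the markers that named the macrophage-like cells. Fcgr3 was most like Hacd4 (0.85), Pgd (0.83), Ccl6 (0.83), Gm5150 (0.82) and Lyz2 (0.82), and Fcer1g was most like its fellow adaptor Tyrobp (0.90), then Itgam (0.85), Fyb (0.85), Plek (0.83) and Myo1f (0.83). Fcgr2b had no close match, with Adam15 (0.75), Cd93 (0.72), Mfsd5 (0.71), Nrp2 (0.70) and Dusp3 (0.69), and Fcgrt was most like 2810025M15Rik (0.81), Lrp5 (0.80), Id3 (0.80), Adcy4 (0.80) and Ap1b1 (0.79). Among the members, Fcgr1 and Fcgr4 were closest to each other (0.80), and Fcgrt and Fcer1g furthest apart (-0.30).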

How the data were processed

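Single liver cells of 8 mice were measured with version 3 of the 10x Genomics 3' chemistry. The values the authors deposited are whole-number UMI counts, in 1 matrix of 55450 genes and 88581 barcodes, made with Cell Ranger on GRCm38 after bcl2fastq 2.20. The header of the deposited file names Cell Ranger 4.0.0, while the study's methods name a later release. The counts had not been normalized or filtered for cell quality. No step against free RNA or doublets before deposit is named. The barcode suffix gave the mouse, as in the sample descriptions.

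The members and lists were chosen with earlier results of these data known. Barcodes with more than 500 genes and under 25% mt- UMIs were kept. Clustering in scanpy 1.11.5 used log values at 10000 UMIs per cell of 2000 variable genes, members and listed genes left out, 30 components and 20 neighbours. Leiden communities (leidenalg 0.10.2, igraph 0.11.9, resolution 1, seed 1) gave 32 clusters, or 46 after clusters in which a second type scored 2.5 or more were split at a resolution of 0.4. A name needed a mean marker z-score of 0.5 and at least 3 markers in a share of 0.1 of the cells. The splits, and the rules that left cycling clusters, clusters with over 50% doublets and hepatocyte clusters with under 2% of UMIs from hepatocyte markers unnamed, were set after the data had been seen. Doublets stayed in; Scrublet scores marked 6824 barcodes, 0.8% per 1000 barcodes, for an alternative.

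UMI counts were summed per mouse and type, with at least 20 cells, and tested in edgeR 4.0.16 by quasi-likelihood, after TMM scaling and filterByExpr (minimum count 10), all groups in 1 fit, in R 4.3.3 with limma 3.58.1, and with DESeq2 1.42.0 as an alternative. Adjusted p-values are Benjamini-Hochberg over all genes of a fit. Exact permutation tests used SciPy 1.17.1. Total depth per library ran from 6135827 to 64855024 UMIs. A count of 0 was given a floor of 3 counts where a limit was needed, and such limits cover counting error only. Nothing says that the mice of a group were kept or processed apart, so p-values measure the spread between these mice. No 2 mice of 1 group agreed within sampling noise. The edgeR step was tested on simulated data before use. Named genes were all members, at most 4 called genes per list by smallest p, and the 5 genes most like each member. Some of the genes this rule names are not reported here. Promoters are the 250 bases before each RefSeq start. Alternatives changed the gene and mitochondrial limits, doublets, clustering, cell minimum, normalization, filter, tool, samples fitted, pseudocount and block, or left out 1 mouse. Scripts ran in Python 3.11.15 (pandas 2.3.3, numpy 2.4.6).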

Additional observations from a re-analysis of the deposited data

Results flagged for a closer look

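A difference between cell types in the NASH effect, tested as an interaction with the mouse as a block, marked 7 results. In B cell-like cells the effect on the log2 scale exceeded that in the mononuclear phagocytes by 1.91 for Fcgr4, 2.46 for Fcgr3, 1.67 for Fcer1g and 3.94 for Fcgr1. In NK cell-like cells it exceeded it by 3.28 for Fcgr4 and 3.33 for Fcgr1, and in plasmacytoid DC-like cells by 2.19 for Fcgr3. Control NK cell-like cells held 2 and 0 UMIs of Fcgr4 and 1 and 1 of Fcgr1, so these differences rest on few control UMIs and depend on the prior count of the fit. In the NASH mice Fcgr4 in B cell-like cells was 0.698 to 1.09 times, and in NK cell-like cells 0.908 to 1.24 times, the level in T cell-like cells of the same mouse. The part of free RNA in these results was not tested.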

How the results depend on the processing

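Of 1470 values of single genes under the alternatives, 1381 kept their direction and side of the threshold, 81 fell short of it, 8 passed it and 0 reversed, and 23 of the 81 were without control replicate 1, which leaves control replicate 2 and its 5305581 kept UMIs as the only control. Pairs called in HFD+F+CCl4 against control were 15, and 23 at a Leiden resolution of 0.42. Those in WD+F+CCl4 against control were 18, then 9 with more than 1000 genes per cell and 10 without doublets. Counting only pairs over 1.5 times the T cell-like level, chosen after seeing the data, left 1 and 2, where the 1 and 5 pairs in T cell-like cells could not pass by construction. Pairs called between the models were 0, but 1 with DESeq2 and 14 with no filter beyond 1 count. Differences in NASH effect between cell types were 7, then 11 with no filter, 3 without doublets and 14 at a resolution of 0.42. The cause of these changes was not tested.

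Leaving out each mouse in turn gave 5 to 16 pairs in HFD+F+CCl4 (5 without control replicate 1), 8 to 20 in WD+F+CCl4 (8 without control replicate 1), 0 to 6 between the models (6 without WD+F+CCl4 replicate 3) and 0 to 9 differences in effect (0 without control replicate 1). It gave 3 to 4 and 4 to 4 members over all kept cells, and 1 to 2 in the mononuclear phagocytes in each model. A lone control mouse is assumed to vary like the other groups. The difference in the activating to inhibitory ratio was 1.19 to 1.42, and the members called between the models and the neighbouring types called stayed at 0.

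In their deviations from the group mean, same-numbered mice correlated at -0.61 to 0.05 and differently numbered mice at -0.29 to 0.63. No pairing by replicate number was seen. Deviations from the mean of 2 or 3 mice are tied to each other, so these values cannot settle whether the numbers pair the mice. With the replicate number as a block, 3 and 4 members were called over all kept cells, 2 and 2 in the mononuclear phagocytes, 17 and 19 pairs against control and 0 between the models. Depth limits what could be seen in control cells of rare types, in which 1 UMI can decide a level.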
